A study of Mus musculus with 10 samples.

Results

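The AP-1 and immediate early genes described here are 10 mouse genes, Fos, Fosb, Fosl1, Fosl2, Jun, Junb, Jund, Egr1, Egr2 and Atf3, taken by name, with no threshold on a measured value, from the 50600 genes measured. They were followed by RNA-seq of mouse embryonic fibroblasts (MEFs) during the first 7 days of reprogramming. The MEFs came from E13.5 embryos of CBA/CaJ X C57BL/6J matings and, per the methods, carried an Oct4-GFP reporter. Cells of both arms received retroviruses made in PlatE cells for Oct4, Klf4 and Sox2 (OKS). Per the methods, MEFs were kept in medium with fetal bovine serum and were moved to the serum-free medium iCD1 after the infections. Whether the day 0 libraries were taken before this move is not stated in the sources used here. The OKS + FoxO6 arm also received FoxO6, a forkhead transcription factor, and the control arm OKS + DsRed received the red fluorescent protein DsRed instead. Each arm gave 1 library on each of days 0, 1, 3, 5 and 7, which makes 10 libraries, and the 5 libraries of an arm may come from a single infected culture.

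Immediate early genes are transcribed within minutes of a growth factor, serum or stress signal, without new protein synthesis, because the factors that switch them on are already in the cell and wait for phosphorylation by MAP kinases. The Fos and Jun proteins pair through leucine zippers into AP-1, which binds the TPA response element. Jun proteins can pair with each other, while Fos proteins need a Jun partner. Egr1 and Egr2 are zinc finger factors that bind GC-rich sites, and Atf3 is a stress-induced relative of Jun and Fos. In fibroblasts these genes are known as the first response to serum and wounding, and AP-1 is known to bind many fibroblast enhancers.

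The libraries held 1208379 to 2225750 expected counts, with a median of 1601151. Foxo6 was at 0.61 to 2.29 TPM (the level of a transcript corrected for its length and for library size) in OKS + DsRed and at 762 to 1356 TPM in OKS + FoxO6. Every library thus matched the arm in its label, day 0 included. The fibroblast genes Col1a1 and Thy1 were high at the start (up to 1354 and 347 TPM). The epithelial gene Cdh1 reached 201 TPM in OKS + DsRed and 28.9 TPM in OKS + FoxO6, and the pluripotency gene Nanog reached 58.4 and 8.31 TPM. Of the macrophage genes, Ptprc, Csf1r and Adgre1 had at most 3 reads in any library, while Cd68 reached 52.6 TPM. Of the endothelial genes, Cdh5 had at most 4 and Pecam1 at most 18 reads, while Kdr reached 44.6 TPM and Tek 104 TPM, both in OKS + FoxO6. Because these were bulk samples, fewer cells that express a gene and less RNA per cell cannot be told apart.

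Promoter sequence is shown for 3 AP-1 genes called different between the arms (below) and for Egr2, and it is taken from the RefSeq windows on GRCm38.p6. Windows were found for 8 of the 10 genes, and only the 250 bases before the start are considered. Capitals mark matches to 6 motifs searched on both strands, which were the CArG box of serum response factor, the cAMP response element TGACNTCA, the AP-1 site TGANTCA, the forkhead core GTAAACA, the EGR site GCGTGGGCG and the TATA box TATAAA. No matches to different motifs overlapped in the windows of the members. Fos (chr12:85473640-85473889, plus strand) carries a TATA box, held by 12.4% of all 32851 windows of this length. Jun (chr4:95052223-95052472, minus strand) carries the cAMP response element, held by 7.49%. Junb (chr8:84978749-84978998, minus strand) carries the forkhead core on the opposite strand, held by 3.17%. Of the 5 Egr2 windows, which overlap in part, 4 carry a CArG box, held by 1.47%. These are 2 distinct sites, 1 of them shared by 3 windows, and the 30 bases around that of the window with its start at base 67537869 (chr10:67537787-67537816, plus strand) are shown. The exact AP-1 and EGR letters, held by 6.75% and 0.536% of the windows, were not found in these windows of the 8 genes. Variants of these letters and bases further out were not searched. The Jund window has its start at base 70697739, ahead of the GENCODE start of the gene at 70698949. Fosl2, also called between the arms, has no match to the 6 motifs in its window and is not printed.
Fos: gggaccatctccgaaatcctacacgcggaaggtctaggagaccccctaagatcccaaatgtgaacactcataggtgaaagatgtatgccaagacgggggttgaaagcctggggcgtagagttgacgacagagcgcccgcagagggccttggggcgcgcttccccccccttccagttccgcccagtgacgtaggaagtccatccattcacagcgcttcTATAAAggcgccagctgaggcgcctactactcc
Jun: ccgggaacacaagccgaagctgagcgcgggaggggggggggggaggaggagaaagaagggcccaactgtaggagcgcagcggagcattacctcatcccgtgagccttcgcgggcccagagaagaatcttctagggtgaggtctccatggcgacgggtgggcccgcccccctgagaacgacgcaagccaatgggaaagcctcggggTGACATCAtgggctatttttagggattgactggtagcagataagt
Junb: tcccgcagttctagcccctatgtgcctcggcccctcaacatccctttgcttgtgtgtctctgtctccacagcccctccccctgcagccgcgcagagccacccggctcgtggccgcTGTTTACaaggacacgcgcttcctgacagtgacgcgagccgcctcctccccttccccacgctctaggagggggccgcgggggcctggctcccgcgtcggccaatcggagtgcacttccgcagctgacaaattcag
Egr2: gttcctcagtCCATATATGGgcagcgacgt

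Levels are given in TPM, which corrects for transcript length and so allows genes to be compared. Over the 10 libraries Jund had the highest level, 258 ± 96.4 TPM (mean ± SD, n = 10 libraries of both arms and all days). It was followed by Junb at 116 ± 43.8, Egr1 at 88.1 ± 61.5, Jun at 64.4 ± 21.8, Fosl1 at 55.3 ± 46.6, Fosl2 at 26.9 ± 13.6 and Fos at 22.2 ± 9.2 TPM. Egr2 at 5.39 ± 5.63, Fosb at 2.65 ± 2.58 and Atf3 at 2.3 ± 1.68 TPM came last. The gap to the next gene was larger than the SD of both neighbours only between Jund and Junb and between Fos and Egr2, and for the other neighbours it was within the SD of at least 1 of the pair. The summed Jun family stood above the summed Fos family in every library, at 307 to 546 TPM against 41.1 to 209 TPM.

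**Figure D1:**
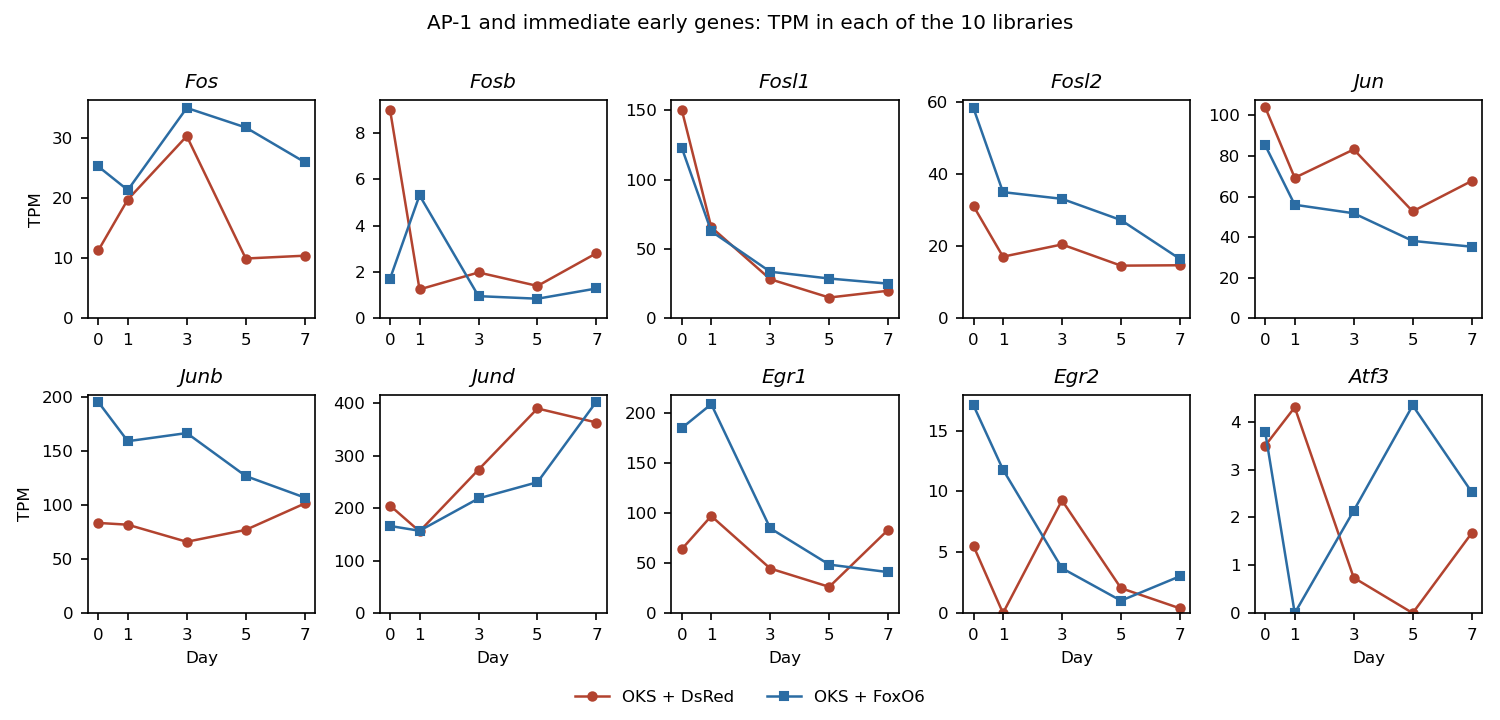
Level of each gene in TPM (y axis, from 0, own scale per gene) on days 0, 1, 3, 5 and 7 (x axis), red circles for OKS + DsRed and blue squares for OKS + FoxO6, each point 1 library. Fos, Fosl2 and Junb lie higher in OKS + FoxO6 on all 5 days and Jun lies lower, while Fosl1 falls along nearly one line in both arms and Jund rises.

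The first question was whether FoxO6 changed these genes beside OKS. A shift between the arms over the 5 days was tested with edgeR's quasi-likelihood test on the rounded expected counts, with a term for each day and p-values adjusted after Benjamini and Hochberg over 12212 genes, and genes with an adjusted p under 0.05 were called. Fosb and Atf3 did not pass the filter on low counts, which left 8 of the 10 genes. Egr2 passed the filter only through its reads in OKS + FoxO6 on days 0 and 1, so it had to differ, and it is left out of the counts of members called in the edgeR fits. Fos, Fosl2 and Junb were called higher in OKS + FoxO6 (3 of 7), beside 6.63% of all genes tested. Jun was called lower (1 of 7), beside 6.89% of all genes tested. The p-values rest on 1 library per arm and day and describe these time courses rather than independent infections.

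Fos, the classical serum-induced subunit (ENSMUSG00000021250, chromosome 12, 85473890 to 85477273, plus strand), was at 11.3, 19.8, 30.4, 9.99 and 10.5 TPM on days 0, 1, 3, 5 and 7 in OKS + DsRed. In OKS + FoxO6 it was at 25.3, 21.4, 35.1, 31.8 and 26.1 TPM on the same days. It was higher in OKS + FoxO6 on all 5 days, but the 2 ranges overlapped, since day 3 of OKS + DsRed stood above days 0, 1 and 7 of OKS + FoxO6. In OKS + DsRed the level rose to day 3 and was back near the start on days 5 and 7, while in OKS + FoxO6 all 5 days lay between 21.4 and 35.1 TPM. The shift was 0.96 ± 0.24 (log2, SE), or 1.95-fold, with an adjusted p of 0.0218. Fos had 13 to 69 reads per library, and without either library of day 5 the shift was 0.81 to 0.82 and was not called. It was also not called by DESeq2 (0.97), by limma on log2(TPM + 1) (0.84), with no day term (0.91) or with day as a number (0.93).

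Fosl2, a Fos relative without a strong activation domain (ENSMUSG00000029135, chromosome 5, 32135801 to 32157842, plus strand), was at 31.2, 17.1, 20.5, 14.7 and 14.8 TPM on the successive days in OKS + DsRed. In OKS + FoxO6 it was at 58.3, 35.1, 33.2, 27.3 and 16.5 TPM. The ratio of reads scaled to library size (CPM, TMM normalized) was 1.38, 1.41, 1.76 and 1.6 on days 0 to 5, with intervals above 1, and 1.1 (0.808 to 1.49) on day 7. The shift was 0.52 ± 0.14 (log2, SE), adjusted p = 0.0305. This call was lost without any single library of 7 (days 1, 3 and 5 of either arm and day 0 of OKS + FoxO6), at values of 0.45 to 0.55. DESeq2 (0.51), limma (0.71), the fit with no day term (0.52) and that with day as a number (0.52) did not call it either.

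Fosl1, a Fos relative induced by sustained ERK signalling (ENSMUSG00000024912, chromosome 19, 5447547 to 5455946, plus strand), started as the main Fos family mRNA in both arms. It was at 150.5, 65.8, 28.3, 15.1 and 20.0 TPM in OKS + DsRed and at 123, 62.8, 33.7, 28.8 and 25.1 TPM in OKS + FoxO6. Both arms followed almost the same course, and the ratio turned from 0.743 (0.604 to 0.916) on day 0 to 1.84 (1.04 to 3.41) on day 5. The shift was 0.11 ± 0.19 (log2, SE), adjusted p = 0.762, and its sign turned without either library of day 5 (-0.01). The arm by day slope, the change of the arm difference per day, was 0.15 ± 0.059 and was not called (adjusted p = 0.197). Fosl1 overlaps Ccdc85b on the opposite strand, which had 195 reads in the 10 libraries against 772 for Fosl1.

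Fosb, the remaining Fos gene (ENSMUSG00000003545, chromosome 7, 19302696 to 19310051, minus strand), had 2 to 12 reads per library. Its reads were 12, 2, 5, 3 and 6 in OKS + DsRed and 7, 9, 2, 3 and 4 in OKS + FoxO6. The arms overlapped fully, and the only day with an interval that left out 1 was day 0, when the CPM ratio of OKS + FoxO6 to OKS + DsRed was 0.311 (0.104 to 0.857). With no filter on low counts edgeR gave Fosb an arm shift of -0.48 and limma one of -0.42, neither called.

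In the Jun family the genes went different ways. Junb, which is a weaker activator than Jun and often opposes it (ENSMUSG00000052837, chromosome 8, 84974484 to 84978718, minus strand), was at 83.3, 81.6, 65.8, 76.8 and 101 TPM in OKS + DsRed. In OKS + FoxO6 it was at 195, 159, 166, 127 and 107 TPM. Every OKS + FoxO6 library stood above every OKS + DsRed library, so the arms did not overlap, although on day 7 the values were 107 and 101 TPM. The shift was 0.84 ± 0.16 (log2, SE), or 1.79-fold, with an adjusted p of 0.00663, and the call held without any 1 of the 10 libraries (0.73 to 1.01). The CPM ratio was 2.13 (1.69 to 2.7) on day 0 and 1.15 (0.925 to 1.43) on day 7. Junb lies opposite Prdx2, which had 4802 reads in the 10 libraries against 1827 for Junb, and since the use of strand in counting is not given in the sources used here, reads of the overlap cannot be told apart.

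Jun, the main DNA-binding partner of Fos (ENSMUSG00000052684, chromosome 4, 95049034 to 95052222, minus strand, 1 exon), moved the other way. It was at 104, 69.3, 83.2, 52.7 and 67.7 TPM in OKS + DsRed and at 85.3, 56.0, 51.8, 38.2 and 35.3 TPM in OKS + FoxO6. It was lower in OKS + FoxO6 on all 5 days, although the ranges of the arms overlapped as both fell with time. The shift was -0.55 ± 0.12 (log2, SE), adjusted p = 0.0148, and the CPM ratio was lowest on day 7 at 0.57 (0.444 to 0.727). Without either library of day 3 or of day 5 the shift was -0.51 to -0.56 and was not called, nor was it by limma (-0.53), with no day term (-0.54) or with day as a number (-0.55). The antisense gene Junos, which overlaps Jun, had 44.2 reads in all libraries together against 1699 for Jun.

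Jund, the Jun gene that is least dependent on growth signals (ENSMUSG00000071076, chromosome 8, 70698949 to 70700616, plus strand, 1 exon), was at 205, 156, 274, 390.4 and 364 TPM in OKS + DsRed. In OKS + FoxO6 it was at 166, 157, 219, 249.8 and 404 TPM. The arms overlapped, and the interval of the CPM ratio lay below 1 on days 0, 3 and 5 and above 1 on day 7, when the ratio was 1.21 (1.08 to 1.36). The shift was -0.24 ± 0.15 (log2, SE) with an adjusted p of 0.342.

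**Figure D2:**
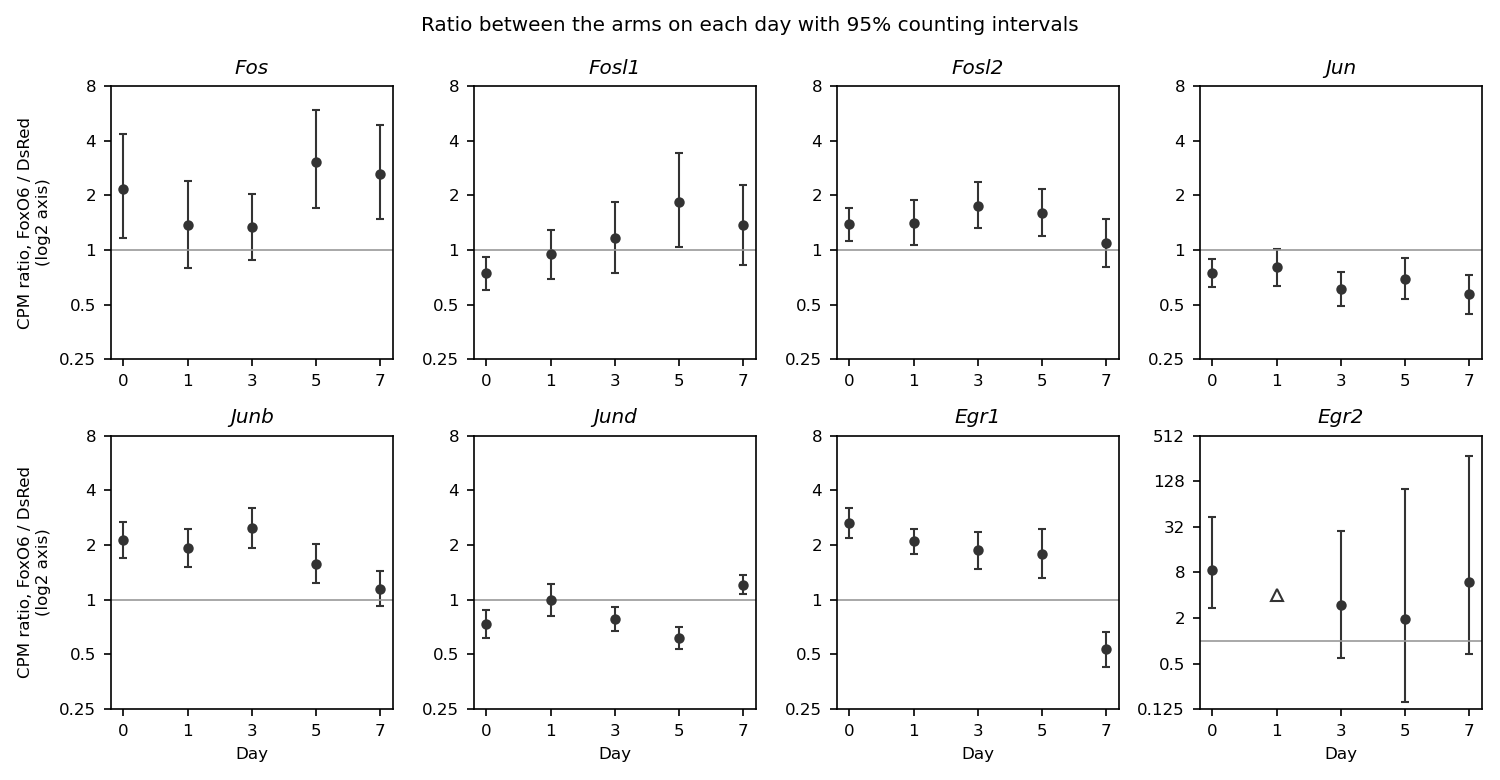
CPM in OKS + FoxO6 divided by CPM in OKS + DsRed (y axis, log2 scale, wider for Egr2) on each day (x axis), with exact 95% intervals that cover counting error only. The grey line marks a ratio of 1. The open triangle for Egr2 on day 1 is the lower end of its exact interval, 4.01, as OKS + DsRed had 0 reads. Jun lies below 1 on all 5 days and Egr1 crosses from 2.64 on day 0 to 0.535 on day 7.

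Egr1 was the only 1 of these 7 genes whose difference between the arms was called to change with time. Egr1, a zinc finger factor induced through ERK (ENSMUSG00000038418, chromosome 18, 34859823 to 34864984, plus strand), was at 63.8, 96.8, 44.5, 26.2 and 83.2 TPM in OKS + DsRed. In OKS + FoxO6 it was at 185, 208, 84.6, 48.4 and 40.9 TPM. It was higher in OKS + FoxO6 on days 0, 1, 3 and 5, at CPM ratios of 2.64 (2.19 to 3.21), 2.1 (1.8 to 2.45), 1.87 (1.49 to 2.38) and 1.78 (1.31 to 2.45). On day 7 it was lower, at 0.535 (0.425 to 0.669), as OKS + DsRed went from 58 reads on day 5 to 255 reads on day 7 while OKS + FoxO6 went from 159 to 115. The arm by day slope was -0.27 ± 0.057 (log2 per day, SE), adjusted p = 0.0325, and it was the 1 call of 7 in the downward direction, beside 0.614% of all genes tested, with none of 7 upward, beside 0.991%. In edgeR's slope test 3 of the 7 had an unadjusted p under 0.05, DESeq2 called 1 and limma 0, although the slope of Egr1 was -0.30 by limma, which called 0.133% of all genes. Without either library of day 7 the slope was -0.10 to -0.11 and was not called. Without either library of day 0 it was -0.29 to -0.30, no smaller than with all libraries, but was not called.

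The shift of Egr1 over the 5 days was 0.69 ± 0.27 (log2, SE) and missed the threshold (adjusted p = 0.121). Without either library of day 7 it was 1.07 to 1.08 and was called. It was also called with no filter on low counts (0.72), with all libraries kept.

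Egr2, the sister gene of Egr1 (ENSMUSG00000037868, chromosome 10, 67535475 to 67542188, plus strand), had few reads, so it is given by reads first. It had 3, 0, 2, 1 and 1 reads in OKS + DsRed and 48, 18, 8, 3 and 5 reads in OKS + FoxO6. The arms touched at 3 reads, and the highest values were those of days 0 and 1 in OKS + FoxO6. The CPM ratio was 8.53 (2.75 to 42.8) on day 0, and on day 1 the exact interval began at 4.01. With the 0 reads of OKS + DsRed set to 3 per library the day 1 ratio was at least 5.47, a value that leaves out counting error. On days 3, 5 and 7 the intervals held 1. The fitted shift was 2.79 ± 0.65 (log2, SE), given with no test because of how Egr2 passed the filter, and it was 2.24 to 2.64 without any 1 of the 4 libraries of days 0 and 1. The TPM of Egr2 did not follow its reads, for 2 reads on day 3 of OKS + DsRed gave 9.27 TPM and 8 reads in OKS + FoxO6 gave 3.69 TPM, and on log2(TPM + 1) limma gave a shift of 0.99 that was not called.

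Atf3, induced by cell stress (ENSMUSG00000026628, chromosome 1, 191170296 to 191218039, minus strand), had 4, 6, 1, 0 and 3 reads in OKS + DsRed and 8, 0, 4, 2 and 3 reads in OKS + FoxO6. The arms overlapped fully, and with no filter on low counts its arm shift was -0.03 and not called. On day 1 it was lower in OKS + FoxO6, with an exact interval that began at 1.29-fold, and at least 2.19-fold lower with the 0 reads set to 3, counting error left out. On the other days the intervals held 1.

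A count of 2-fold differences per day, on the log2(TPM + 1) scale that understates the change of low genes, is given day by day. It has no replicate check and no test, and the 15011 genes whose TPM averaged 1 or more give the background. On day 0, Fos, Junb, Egr1 and Egr2 were at least 2-fold higher in OKS + FoxO6 (4 of 10, beside 10.6% of all genes) and Fosb lower (1 of 10, beside 6.41%). On day 1, Fosb, Egr1 and Egr2 were higher (3 of 10, beside 8.1%) and Atf3 lower (1 of 10, beside 9.43%). On day 3 Junb was higher (1 of 10, beside 8.21%) and Egr2 lower by TPM (1 of 10, beside 11.8%), although its reads were 8 in OKS + FoxO6 and 2 in OKS + DsRed.

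On day 5 Fos and Atf3 were higher (2 of 10, beside 10.3%) and no member was 2-fold lower (0 of 10, beside 11.4%). Atf3 rested there on 0 reads in OKS + DsRed and 2 reads in OKS + FoxO6, with an interval that held 1. On day 7 Fos and Egr2 were higher (2 of 10, beside 8.3%) and Egr1 lower (1 of 10, beside 16.5%). Fosb, Egr2 and Atf3 entered these counts with at most 48 reads, and the others with 13 to 649 reads. On days 3, 5 and 7 the number of members past 2-fold in either direction was near the share of all genes.

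The second question was how the genes changed over the 7 days in both arms. Both arms were also moved from serum to iCD1 at the start of the course. The part of this move in the changes with time, here and in the lists below, was not tested. In the same fit, with the 2 arms standing as the 2 libraries of a day, Jund was called higher on day 7 than on day 0 (1 of 7, beside 11.7% of all genes tested). Fosl1, Fosl2 and Jun were called lower (3 of 7, beside 10.1%). A change in any direction over the 5 days was called for Fosl1, Fosl2, Jun, Jund and Egr1 (5 of 7, beside 20.0%), and that of Jun was lost without the day 0 library of OKS + FoxO6.

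Fosl1 fell most of the genes called, by 2.58 ± 0.30 (log2, SE), or 5.99-fold, adjusted p = 0.000174. Its difference from day 0 was -1.21 on day 1, -2.28 on day 3 and -2.75 on day 5, so most of the fall came in the first 3 days. Fosl2 fell by 1.32 ± 0.22 (adjusted p = 0.00128), and its difference from day 0 was already -0.996 on day 1. Jun fell by 0.91 ± 0.19 (adjusted p = 0.00627). These 3 falls stayed called whichever 1 of the 10 libraries was left out. The fibroblast genes fell over the same days (12 of 14 called lower, median -2.01), and their part in the falls was not tested.

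Jund rose by 1.10 ± 0.24 (log2, SE), or 2.14-fold, adjusted p = 0.00671. Its rise came after day 1, since its difference from day 0 was -0.35 on day 1 and 0.27, 0.63 and 1.10 on days 3, 5 and 7. Without the day 0 library of OKS + FoxO6 the rise was 0.96 and was not called. Jund overlaps Gm11175 on the opposite strand, which had 109 reads in the 10 libraries against 3553 for Jund.

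Egr1 changed over the days (adjusted p = 0.0259 for any change), with a difference from day 0 of -1.77 (log2) on day 5, a call that was lost without either library of day 1 or of day 5. Its difference between day 7 and day 0 was -0.76 ± 0.42 (adjusted p = 0.23), which was -1.92 and called without the day 7 library of OKS + DsRed and 0.06 without that of OKS + FoxO6. With no filter on low counts and all libraries kept, the difference of Egr1 was -0.78 and was called. Fos and Junb differed between day 7 and day 0 by -0.07 ± 0.38 (adjusted p = 0.924) and -0.26 ± 0.25 (adjusted p = 0.513). For Egr2 the difference was -2.62 ± 0.90, also given with no test, since the same reads of days 0 and 1 brought it past the filter.

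**Figure D3:**
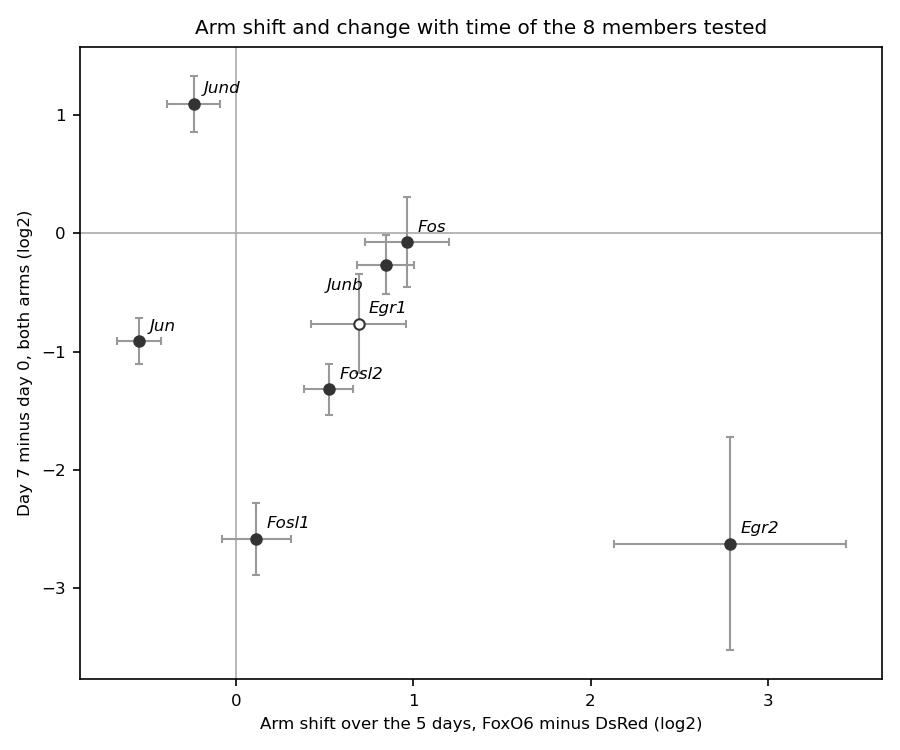
Arm shift over the 5 days (x axis, log2, OKS + FoxO6 minus OKS + DsRed) against the change from day 0 to day 7 in both arms (y axis, log2) for the 8 genes tested, with bars of 1 SE. Filled points were called in at least 1 of the 2 comparisons and the open point, Egr1, in neither. Egr2 is filled, but passed the filter only through 2 libraries of OKS + FoxO6, so its fill is not counted as a call. Jun lies at -0.55 and -0.91, Jund is the only gene with a rise called, and Fosl1 lies near 0 on the x axis.

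The makeup of the AP-1 mRNA was read as shares of each family. In the Jun family, which summed to 392 TPM on day 0 and 533 TPM on day 7 in OKS + DsRed and to 446 and 546 TPM in OKS + FoxO6, the share of Junb was 21.2% and 43.7% on day 0. It was 19.0% and 19.6% on day 7, so the arms started apart and ended alike in this share. Jund went from 52.3% to 68.3% in OKS + DsRed and from 37.2% to 74.0% in OKS + FoxO6. Jun went from 26.5% to 12.7% and from 19.1% to 6.48%.

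The Fos family summed to 202 TPM on day 0 and 48.0 TPM on day 7 in OKS + DsRed, and to 209 and 69.0 TPM in OKS + FoxO6. On day 0 Fosl1 held 74.5% of it in OKS + DsRed and 59.1% in OKS + FoxO6, against 41.6% and 36.4% on day 7. Fos held 5.61% and 12.2% on day 0. It held 21.8% and 37.8% on day 7, so that in OKS + FoxO6 Fos and Fosl1 ended at about equal levels. These shares have no test, as each rests on 1 library. They also rest on TPM, which for Fosl2 differed more between the arms than its CPM on days 0, 1 and 5.

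**Figure D4:**
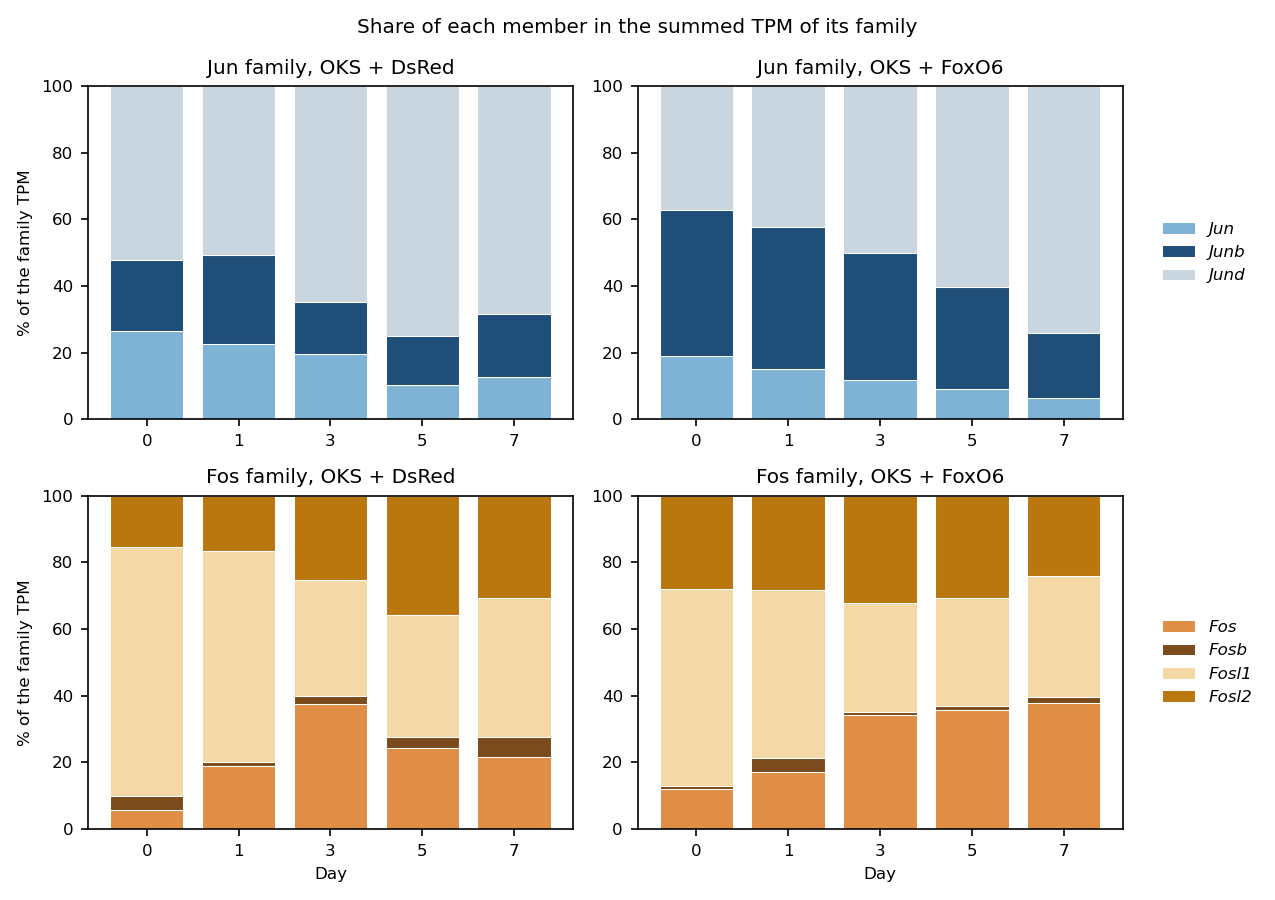
Share of each gene in the summed TPM of its family (y axis, percent, stacked from 0) on each day (x axis), for the Jun family (top) and the Fos family (bottom) in OKS + DsRed (left) and OKS + FoxO6 (right). The dark Junb band is 43.7% on day 0 of OKS + FoxO6 and 21.2% in OKS + DsRed, and the pale Fosl1 band is narrower on day 7 than on day 0 in both arms, 41.6% against 74.5% and 36.4% against 59.1%, with its lowest share on day 3 in OKS + DsRed and on day 5 in OKS + FoxO6.

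The levels of the genes were compared pairwise over the 10 libraries on the log2(TPM + 1) scale, as a description, since the points share arms, days and depth. Fosl2 followed Junb (Pearson r = 0.75), Fosl1 (r = 0.72) and Egr2 (r = 0.72, on TPM that did not follow the reads of Egr2), and Jund ran against Fosl1 (r = -0.81), Egr1 (r = -0.79) and Fosl2 (r = -0.70). Fos followed none of the other 9 genes beyond r = 0.44 and ran against Fosb at r = -0.51.

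Among the 9849 genes whose TPM averaged 10 or more, those with the pattern most like that of Fos were Cers2 (r = 0.97), Hist2h2aa1 (r = 0.96) and Lrp10 (r = 0.94). For Egr1 they were Nsf, Rap2c and Wwtr1, each at r = 0.92. For Fosl1 they were Ehbp1l1 (r = 0.99), Bgn, an extracellular matrix proteoglycan (r = 0.98), and Tagln, a smooth muscle actin-binding protein (r = 0.98). For Jund they were Nkd1, Rnd2 and Alpl, each at r = 0.96. All values are over the same 10 libraries and were picked as the highest of the 9849.

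Other genes of the pathway were read from named lists, each against the median shift of all genes tested, which was -0.02 (log2) between the arms and 0.03 between day 7 and day 0. Their counts stand against the 6.63% of all genes tested that were called higher and the 6.89% called lower between the arms, and against 11.7% and 10.1% with time. Of the partners of AP-1 in the bZIP family, such as the small Maf and Batf proteins, 1 of 12 tested was called between the arms. This was Mafk, higher by 0.94 ± 0.17 (log2, SE) in OKS + FoxO6 (adjusted p = 0.00476), at 18.4 to 23.3 TPM in OKS + DsRed and 22.8 to 56.0 TPM in OKS + FoxO6. Its arms overlapped at the day 7 library of OKS + FoxO6 alone, and the median of the list was 0.14. Between day 7 and day 0 edgeR, DESeq2 and limma called 0 of 12, while 4 had an unadjusted p under 0.05 in edgeR, and the median was -0.40.

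Of 32 other immediate early genes tested, 6 were called higher and 5 lower in OKS + FoxO6, with a median shift of 0.04. DESeq2 called 8 of the list and limma 6. Ctgf, a matrix-associated growth factor, was higher by 1.41 ± 0.24 (log2, SE), adjusted p = 0.00355. It was at 299 TPM on day 0 and 36.2 to 64.6 TPM later in OKS + DsRed, and at 469 TPM and then 105 to 199 TPM in OKS + FoxO6. Phlda1 was lower by -1.11 ± 0.17 (adjusted p = 0.00164), and Dusp1, Klf6, Zfp36, Btg1 and Ptgs2 were called higher, while Sik1, Klf2, Klf10 and Nr4a1 were called lower. The calls of Sik1 and Klf2 were lost without 8 and 6 of the single libraries.

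With time, 9 of these 32 were called lower on day 7 than on day 0 and 2 higher, with a median of -0.61. Hbegf, an EGF receptor ligand, fell by 3.76 ± 0.42 (log2, SE, adjusted p = 0.000119). It was at 42.2 TPM on day 0 and 4.89 TPM on day 7 in OKS + DsRed and at 79.3 and 3.38 TPM in OKS + FoxO6. Ptgs2, the inducible cyclooxygenase, fell by 3.49 ± 0.34 (adjusted p = 5.04e-05). Klf2 and Btg2 were the 2 called higher, and the call of Klf2 was lost without the day 0 library of OKS + DsRed (1.83).

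Among known targets of AP-1 and EGR factors, 2 of 15 tested were called higher in OKS + FoxO6 (Spp1 and Timp1) and 4 lower (Ccnd1, Cd44, Mt2 and Vegfa), with a median shift of -0.01. DESeq2 called 5 and limma 4. The call of Spp1 was lost without any 1 of the 4 libraries of days 3 and 5, and that of Mt2 without 8 of the single libraries. Vegfa, the vascular growth factor, was lower by -2.00 ± 0.37 (log2, SE, adjusted p = 0.00596), and was at 80.6 TPM in OKS + DsRed and 6.18 TPM in OKS + FoxO6 on day 7. Ccnd1, the G1 cyclin, was lower by -0.90 ± 0.11 (adjusted p = 0.000415) at 414 to 511 TPM against 232 to 322 TPM, with no overlap of the arms. Over time 8 of the 15 were called lower and 2 higher, with a median of -1.21. Plaur, the urokinase receptor, fell by 2.14 ± 0.26 (adjusted p = 0.000192).

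Of 21 MAP kinase pathway genes and serum response factor partners tested, 2 were called higher (Map2k4 and Mapk9) and 1 lower (Elk3) in OKS + FoxO6, with a median shift of 0.02. DESeq2 and limma each called 1 of this list, and the count by edgeR is near the share of all genes. Elk3, a ternary complex factor of the CArG box, was lower by -0.75 ± 0.12 (log2, SE, adjusted p = 0.00293), while the calls of Map2k4 and Mapk9 were each lost without several single libraries. With time 1 was called higher and 4 lower, with a median of 0.03, while DESeq2 called 3 and limma 2. The time call of Elk3 was lost without 9 of the 10 single libraries, that of Map2k4 without 3 and that of Mkl1 without 2. Of 9 repressors and turnover factors tested, 0 were called between the arms by edgeR, DESeq2 or limma, and 3 had an unadjusted p under 0.05 in edgeR (median -0.13). With time Fbxw7, a ubiquitin ligase subunit that takes Jun as a substrate, rose by 1.34 ± 0.29 (adjusted p = 0.00733) and Zfp36l2 fell by 1.01 ± 0.22 (adjusted p = 0.00809), with a median of -0.38. Without the day 0 library of OKS + DsRed the call of Fbxw7 was lost and without that of OKS + FoxO6 the call of Zfp36l2 was lost (0.96 and -0.85).

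Heat shock genes were read as a sign of stress at collection. Of 11 tested, 1 (Hspd1) was called lower in OKS + FoxO6 (median -0.11), and with time Hspb1 was called higher and Bag3 lower (median -0.10). The call of Hspd1 was lost without any of 8 single libraries and that of Bag3 without the day 0 library of OKS + FoxO6 (-0.82). Their summed level was 4184 to 4832 TPM in OKS + DsRed and 4026 to 4567 TPM in OKS + FoxO6.

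Markers of cell types moved with the arms and with time as follows. Of 14 fibroblast genes 4 were called higher and 2 lower in OKS + FoxO6, and the list summed to 1506 to 7239 TPM in OKS + DsRed and 1984 to 7458 TPM in OKS + FoxO6. Of 8 epithelial genes tested, 4 were called lower in OKS + FoxO6, and of 5 pluripotency genes 1, Nanog, was called lower. The epithelial list summed to 87.8 to 811 TPM in OKS + DsRed and 39.0 to 221 TPM in OKS + FoxO6, and the pluripotency list to 4.75 to 357 TPM and 1.10 to 99.3 TPM. Over time 7 of 8 and 5 of 5 were called higher, and the calls of Cldn7 and Fbxo15 were lost without 3 and 1 of the single libraries. Of the macrophage list 1 of 8 genes, Cd68, could be tested and was not called, and of the endothelial list Kdr and Tek were called higher and Eng lower between the arms (3 tested), while Tek was called higher with time. Between the arms, the calls of Pdgfra, Epcam, Nanog, Kdr and Eng were lost without 6, 2, 2, 4 and 5 of the single libraries. The part of these cell types in the shifts of Fos, Fosl2, Junb, Egr2 and Jun was not tested.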

How the data were processed

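RNA-seq was measured in 10 libraries of OKS + DsRed and OKS + FoxO6, grouped by their labels. Reads were aligned by the authors with RSEM and Bowtie2 (versions not given in the sources used here) to GENCODE M13 on GRCm38. The deposited expected counts are RSEM estimates without normalization, and the deposited TPM were computed by the authors from the same alignments. The methods name a TruSeq kit and the labels a VAHTS kit. The table of the whole series held 48476 of the 50600 genes with identical expected counts, and 0 of its columns had no sample.

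Expected counts were rounded and fitted in R 4.3.3 with edgeR 4.0.16 (quasi-likelihood test, TMM, filterByExpr, day as a factor, common dispersion 0.0367, 4 residual degrees of freedom). The slope fit used day as a factor, arm, and the product of arm with day as a number (common dispersion 0.0214, 3 residual degrees of freedom). Adjusted p under 0.05 (Benjamini-Hochberg) was the threshold. Simulated 4-fold changes of 200 genes were recovered for 191 (arm shift, 11868 genes, 6 false calls), 184 (day 7 against day 0, 11869 genes, 9 false), 184 (any change, 11858 genes, 6 false) and 64 (slope, 11838 genes, 2 false). The simulated counts had the same dispersion for all genes and no other change between libraries than depth. Recovery of smaller changes was not tested. Intervals per day are exact (Clopper-Pearson) at 95% and cover counting error only, in reads without molecular identifiers, while bounds against a floor of 3 reads leave counting error out. Python 3.11.15 with scipy 1.17.1, pandas 2.3.3, numpy 2.4.6 and matplotlib 3.10.9 did the rest, with a pseudocount of 1 on TPM. Coordinates are GENCODE M21 on GRCm38, and promoter sequences RefSeq on GRCm38.p6.

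The members and all lists (AP-1 partners, other immediate early genes, targets, upstream kinases, repressors and turnover, heat shock, markers of fibroblast, epithelium, pluripotency, macrophage and endothelium) were chosen with earlier results of these data known. Besides the 10 members, up to 4 genes called with the largest change per list and comparison could be named, or the 2 with the lowest p where none was called, and the 3 genes most like Fos, Egr1, Fosl1 and Jund. Other genes are named as all calls of a list or as defining markers. Alternatives were other size factors, no filter, DESeq2 1.42.0, limma 3.58.1 on log2(TPM + 1), each library left out, other day terms, a pseudocount of 0.1, CPM with a prior count of 2 and other TPM filters. Some genes of the lists are not reported here.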

Additional observations from a re-analysis of the deposited data

Results flagged for a closer look

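The change of the arm difference per day was itself tested in edgeR's slope fit, and 6 of the 139 members and list genes tested, Egr1 and 5 from the lists, were called, beside 0.991% of all genes tested with a slope upward and 0.614% downward. On log2(TPM + 1) limma called 0 members and 0 genes of these lists, beside 0.133% of all genes, and DESeq2 called 5 of the 6, all but Dcn. Egr1 had a slope of -0.27 (log2 per day, OKS + FoxO6 minus OKS + DsRed), lost without either library of day 0 or of day 7. Vegfa had a slope of -0.43, and Cyr61, a matrix-associated immediate early gene, one of 0.29, and both calls were lost without either library of day 0. The fibroblast collagen Col1a2 had a slope of 0.36 and the proteoglycan Dcn one of 0.24, and the call of Dcn was lost without any single library of days 0, 1 or 7. Kdr, the vascular growth factor receptor, had the steepest slope of the 6, 0.83. Col1a2 and Kdr were called without any 1 of the 10 libraries.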

How the results depend on the processing

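Egr2 is left out of the counts of members called in this section. In the arm shift 4 of the 7 members tested were called, beside 13.5% of all genes tested. DESeq2 called 2 (9.72% of all genes) and limma on log2(TPM + 1) called 1 (5.36%). A fit with no day term called 1 (1.53%) and day as a number called 1 (7.16%). The calls thus became fewer over all genes too under these 4 settings. With each library left out 1 to 5 were called (5.59% to 13.3%). Between day 7 and day 0, 4 were called (21.8%), and 3 to 5 with a library left out (at most 21.1%). A change over the days was called for 5 (20.0%), with 2 by limma (11.1%) and 4 to 5 with a library left out (13.6% to 25.3%). With no filter on low counts, when all 10 members are tested, 6 were called in each of these 3 comparisons (9.7%, 13.4% and 16.4% of all genes), Egr2 among them. The slope was called for 1 (1.6%), with 0 by limma (0.133%) and 0 to 1 with a library left out (0.732% to 2.37%). Member and day pairs past 2-fold numbered 16, and 12 to 19 under the alternatives. The sign of the Fosl1 arm shift turned with no day term (-0.0924), and leaving out a library gave -0.0119 to 0.327. Leaving out a library turned the sign for day 7 against day 0 in Fos (-0.41 to 0.12), Junb (-0.69 to 0.11) and Egr1 (-1.92 to 0.0608), and for the slope in Fosl2 (-0.0562 to 0.0605) and Jund (-0.0811 to 0.0858). None of these was called in the filtered fit to all libraries. The cause of these changes was not tested, apart from the smaller number of libraries when 1 is left out. Junb in the arm shift and Fosl1, Fosl2 and Jun in day 7 against day 0 were called under every alternative. The arm shift is a paired analysis, since its day term pairs the arms on each of the 5 days. Depth limits Fosb, Egr2 and Atf3, which had at most 48 reads in a library.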
